A study of Homo sapiens with 17 samples.

Results

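The integrated stress response was followed in HepG2 cells, a human liver cancer line, through the mRNA levels of 10 of its regulators and effectors. These were ATF4, DDIT3, ATF3, TRIB3, CHAC1, NUPR1, CEBPB, CEBPG, DDIT4 and PPP1R15A, taken by symbol from a table of 17808 genes. All 10 were listed and all 10 were among the 12922 genes that passed the filter on low values. They come from a series of 17 samples on metabolic stress, whose title names BRD9 and lactylation of a histone. The RNA-seq part held 9 libraries of wild-type HepG2 cells grown in DMEM with fetal bovine serum, 3 with 2-DG at 40 mM, 3 with Nala at 40 mM and 3 untreated (NC). 2-DG is 2-deoxyglucose, a glucose analogue that is phosphorylated in the cell but blocks further glycolysis, and the name Nala is kept as in the labels. The 8 remaining samples, 6 of ChIP-seq and 2 of ATAC-seq, were not analysed here. According to the titles 2-DG lasted 48 h and NC 24 h, so treatment and time in culture cannot be told apart in these libraries. The time for Nala is 48 h in the titles but 24 h in the design text. All groups came from 1 cell line.

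In the integrated stress response, kinases that sense amino acid lack, unfolded protein, viral RNA or haem lack phosphorylate the translation factor eIF2alpha. Bulk protein synthesis then falls, while the mRNA of ATF4 is translated more, and ATF4 protein switches on stress genes. Among these, DDIT3 encodes the transcription factor CHOP, and PPP1R15A encodes GADD34, which directs a phosphatase back to eIF2alpha and closes the loop. 2-deoxyglucose is also known to disturb protein glycosylation in the endoplasmic reticulum, a known trigger of the kinase PERK. RNA-seq measures mRNA, not the translational step at ATF4.

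Levels are given in RPKM, reads scaled to the length of the gene model and to the counted total of the library. This puts different genes on 1 scale. The highest value of any gene was 229.6 RPKM. Whether high values are compressed, which would limit comparisons between genes, was not tested. Each library held 6199778 to 6653130 counted reads. Nala replicates 2 and 3 differed by less than the sampling noise, with a chi-square of 0.923 per degree of freedom over 12897 genes (chi-square p = 1), against 2.12 to 9.89 for all other replicate pairs. They were therefore counted as 1 sample, so that n = 2 for Nala and n = 3 for 2-DG and NC. The identity of the cells could be checked only in part. Among hepatocyte markers, APOB and TF were under 1 RPKM in all libraries, while HNF4A lay between 1.41 and 3.30 RPKM. Most other hepatocyte markers, ALB among them, were not analysed here. Summed levels of 6 listed fibroblast markers were 33.3 to 50.9 RPKM with 2-DG, 60.5 to 69.9 with Nala and 44.8 to 85.4 in NC. For 7 endothelial markers the sums were 41.7 to 57.9, 73.4 to 75.2 and 67.9 to 72.7 RPKM in the same order of groups. For 6 immune markers they were 9.70 to 15.8, 26.2 to 28.8 and 25.8 to 29.1 RPKM. The defining endothelial gene PECAM1 did not exceed 0.371 RPKM and the pan-leukocyte gene PTPRC did not exceed 0.0593 RPKM in any library. ENG, COL1A1 and CD68 made up most of the sums.

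Promoter windows of 250 bases before and 50 bases after annotated starts were read from RefSeq (GRCh38.p14) for 9 of the 10 genes, 16 windows in all; NUPR1 had no entry. The 6 windows below are shown because 5 hold a match to an element known for stress-induced transcription and DDIT4 is the gene without a call after 2-DG. Capitals mark the match, and positions count from the annotated start. The motifs were chosen after the windows had been read, so the matches are a description.
CHAC1, chr15:40953221-40953520, plus strand: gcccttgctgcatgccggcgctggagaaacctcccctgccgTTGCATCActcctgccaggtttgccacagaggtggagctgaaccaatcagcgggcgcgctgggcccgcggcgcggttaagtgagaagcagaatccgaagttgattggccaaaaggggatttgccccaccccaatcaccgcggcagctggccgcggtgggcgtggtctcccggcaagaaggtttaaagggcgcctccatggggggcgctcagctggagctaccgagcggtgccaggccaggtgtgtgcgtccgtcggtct
CEBPG, second start, chr19:33373863-33374162, plus strand: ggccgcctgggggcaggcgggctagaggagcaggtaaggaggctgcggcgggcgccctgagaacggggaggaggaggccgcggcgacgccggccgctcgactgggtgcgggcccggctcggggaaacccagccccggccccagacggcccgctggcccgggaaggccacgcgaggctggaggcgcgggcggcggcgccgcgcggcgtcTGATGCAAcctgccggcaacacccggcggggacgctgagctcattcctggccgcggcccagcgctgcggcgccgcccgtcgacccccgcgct
ATF3, first start, chr1:212565157-212565456, plus strand: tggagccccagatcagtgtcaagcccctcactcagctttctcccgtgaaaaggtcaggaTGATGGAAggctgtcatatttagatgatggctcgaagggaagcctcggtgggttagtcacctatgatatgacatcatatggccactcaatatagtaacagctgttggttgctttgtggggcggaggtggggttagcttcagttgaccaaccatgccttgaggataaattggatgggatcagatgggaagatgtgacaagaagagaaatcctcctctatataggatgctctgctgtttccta
PPP1R15A, chr19:48872171-48872470, plus strand: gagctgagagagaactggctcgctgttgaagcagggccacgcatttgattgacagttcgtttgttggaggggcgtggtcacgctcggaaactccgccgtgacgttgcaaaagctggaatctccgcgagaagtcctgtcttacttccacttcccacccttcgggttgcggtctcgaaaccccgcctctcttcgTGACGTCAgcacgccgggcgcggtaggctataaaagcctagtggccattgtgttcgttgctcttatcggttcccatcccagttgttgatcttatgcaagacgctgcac
DDIT3, first start, chr12:57520465-57520764, minus strand: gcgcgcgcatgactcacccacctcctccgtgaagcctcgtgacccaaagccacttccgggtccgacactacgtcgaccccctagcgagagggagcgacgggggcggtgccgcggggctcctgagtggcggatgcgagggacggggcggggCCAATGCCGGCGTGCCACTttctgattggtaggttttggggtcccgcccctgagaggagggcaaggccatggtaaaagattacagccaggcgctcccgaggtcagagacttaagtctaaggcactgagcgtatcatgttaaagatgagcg
DDIT4, chr10:72273674-72273973, plus strand: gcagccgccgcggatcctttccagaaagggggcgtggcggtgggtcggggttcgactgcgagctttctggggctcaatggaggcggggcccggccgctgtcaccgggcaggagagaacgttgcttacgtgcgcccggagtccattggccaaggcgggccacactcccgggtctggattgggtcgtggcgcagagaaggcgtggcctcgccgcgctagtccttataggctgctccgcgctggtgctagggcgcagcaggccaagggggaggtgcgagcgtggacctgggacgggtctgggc

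The C/EBP-ATF element, to which ATF4 binds with C/EBP partners, was searched on both strands as TGATGNAA. It stood at position -209 of CHAC1 on the other strand (TTGCATCA), at -42 of CEBPG (TGATGCAA) and at -191 of ATF3 (TGATGGAA). It was held by 3.62% of all 35116 windows, and by 2.04% of the 14537 windows of tested genes. The cAMP response element, TGACGTCA, is a palindrome bound by CREB and ATF family proteins and was found at -58 of PPP1R15A. That element was in 1.85% of all windows and 2.79% of those of tested genes. The endoplasmic reticulum stress element, bound by ATF6 with NF-Y, was searched on both strands as CCAAT and CCAC with 9 bases of any kind between them and 1 after. It was present in DDIT3 at -100 as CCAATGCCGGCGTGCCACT, and in 0.316% of all windows and 0.351% of those of tested genes. No 2 of these matches overlapped. The windows of ATF4, TRIB3, CEBPB and DDIT4 did not hold these letters.

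With 2-DG, 9 of the 10 genes were higher than in NC and none was lower (limma, adjusted p under 0.05), where 22.6% of all tested genes were called higher, 20.7% lower and 43.3% in either direction. The exception was DDIT4. Since the 10 genes were chosen with earlier results of these data known, their shares are a description. For the same 9 genes all 2-DG libraries were above all NC libraries, against 27.1% of all tested genes. Of the 9, 7 were at least 2-fold higher on the log2(RPKM + 1) scale, a size reached by 3.25% of tested genes. The median log2 fold change was 1.48 over the 10 genes and 0.02 over all tested genes. Summed over the 10 genes, levels were 659, 745 and 712 RPKM with 2-DG, 340, 369 and 380 RPKM with Nala and 328, 358 and 333 RPKM in NC. In bulk RNA, a change in the share of cells that express a gene and a change per cell cannot be told apart.

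**Figure D1:**
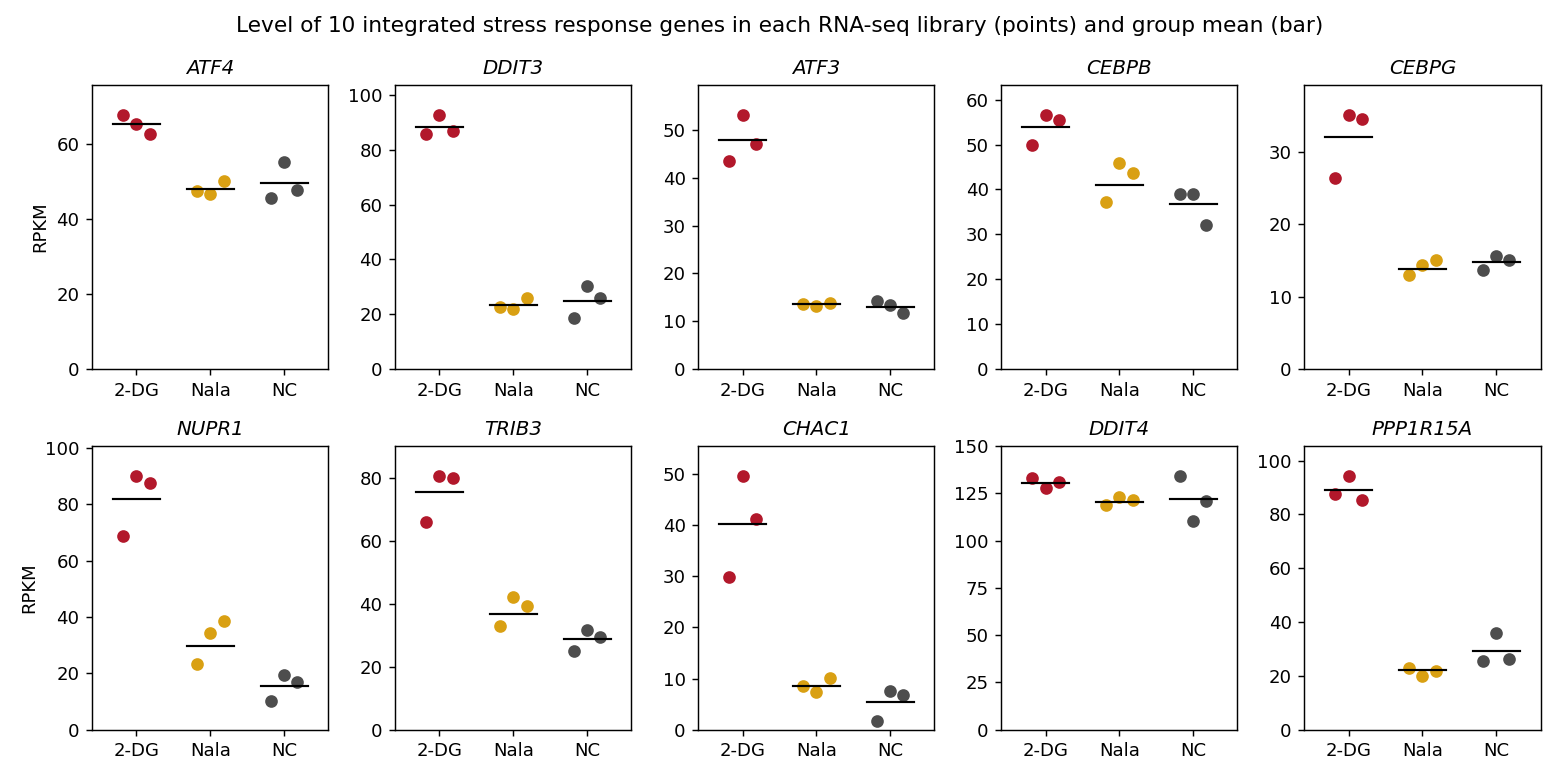
RPKM of each of the 10 genes in every library, with 2-DG, Nala and NC from left to right, 1 point per library and a bar at the group mean (Nala as the mean of 2 samples). In 9 panels all 2-DG points lie above all NC points, and DDIT4 is the panel where they overlap.

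ATF4, the transcription factor at the head of the programme (chromosome 22, 39520559 to 39522686, plus strand, GRCh38.p14), had 67.7, 65.5 and 62.8 RPKM with 2-DG, against 45.7, 55.4 and 47.8 RPKM in NC. The groups did not overlap, although the lowest 2-DG library was only 1.13 times the highest NC library. The log2 fold change was 0.39 (SE 0.0810, limma adjusted p = 0.00406), the smallest among the 9 genes called, and ATF4 stood at rank 2521 of 12922 genes by rise. ATF4 has annotated pseudogene copies, and the treatment of reads shared with them was not given in the sources used here.

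DDIT3, which encodes CHOP, a factor linked to cell death under prolonged stress, lies on chromosome 12 (57516588 to 57520517, minus strand). It had 85.9, 92.6 and 86.9 RPKM with 2-DG, against 18.7, 30.2 and 26.0 RPKM in NC. All 3 2-DG libraries were well clear of NC (log2 fold change 1.81, SE 0.145, limma adjusted p = 2.2e-05). The gene overlaps MARS1, the methionyl-tRNA synthetase gene, the protein-coding gene LOC128125814 and the microRNA gene MIR616. Reads of overlapping genes cannot be told apart where strand was not used. MARS1 itself averaged 85.8 ± 3.92 RPKM with 2-DG and 65.8 ± 6.07 RPKM in NC (SD, n = 3 each), a log2 fold change of 0.38 (limma adjusted p = 0.00362). How much reads shared with overlapping genes added to the DDIT3 values was not tested.

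ATF3, a stress-induced bZIP factor that mostly represses transcription (chromosome 1, 212565407 to 212620777, plus strand), had 43.5, 53.0 and 47.1 RPKM with 2-DG, against 14.2, 13.3 and 11.6 RPKM in NC. The lowest 2-DG library was 3.07 times the highest NC library. Its log2 fold change, 1.80 (SE 0.105, limma adjusted p = 3.7e-06), was close to that of DDIT3, and the 2 genes stood at ranks 83 and 78 by rise. In NC their libraries did not overlap, with 13.03 ± 1.30 RPKM for ATF3 and 25.0 ± 5.82 RPKM for DDIT3 (SD, n = 3).

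The C/EBP factors had smaller changes than DDIT3 and ATF3 and larger ones than ATF4. CEBPG, a partner of ATF4 without a classical activation domain (chromosome 19, 33373709 to 33382686, plus strand), had 26.4, 35.0 and 34.6 RPKM with 2-DG, against 13.7, 15.7 and 15.1 RPKM in NC. The groups were apart and the log2 fold change was 1.05 (SE 0.124, limma adjusted p = 2.0e-04). CEBPB, a regulator of acute phase and metabolic genes in liver (chromosome 20, 50190583 to 50192690, plus strand), had 49.9, 56.5 and 55.5 RPKM with 2-DG, against 39.1, 38.9 and 32.1 RPKM in NC. The groups were again apart, by a factor of 1.28 at the nearest libraries, and the log2 fold change was 0.55 (SE 0.105, limma adjusted p = 0.0028). CEBPB overlaps the antisense gene CEBPB-AS1, whose reads cannot be told apart from it without strand.

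NUPR1, a small stress-induced chromatin protein that works as a transcriptional cofactor (chromosome 16, 28532708 to 28538974), had 68.6, 90.0 and 87.6 RPKM with 2-DG, against 10.2, 19.3 and 16.96 RPKM in NC. Every 2-DG library was at least 3.56 times the highest NC library. A log2 fold change as large as 2.37 (SE 0.232) placed it at rank 25 of 12922 genes by rise, and above all but CHAC1 among the 10 (limma adjusted p = 6.9e-05).

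CHAC1 had the largest change of the 10. It encodes an enzyme that breaks down glutathione and is a known target of the ATF4, ATF3 and CHOP cascade (chromosome 15, 40953471 to 40956512, plus strand; its C/EBP-ATF match is shown above). It had 29.9, 49.6 and 41.2 RPKM with 2-DG, against 1.69, 7.54 and 6.82 RPKM in NC. The log2 fold change was 2.84 (SE 0.385, limma adjusted p = 4.4e-04), at rank 15 of 12922 genes by rise, with a 95% interval from 1.97 to 3.71. The NC libraries were spread widely: replicate 1 held 17 reads of CHAC1, and replicates 2 and 3 held 77 and 66. The highest NC value was 4.46 times the lowest, and without NC replicate 1 the log2 fold change was 2.31.

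TRIB3, a pseudokinase that binds AKT and restrains ATF4 and CHOP (chromosome 20, 380760 to 397559, plus strand), had 66.0, 80.6 and 80.0 RPKM with 2-DG, against 25.0, 31.6 and 29.5 RPKM in NC. Its groups were far apart, and the log2 fold change was 1.37 (SE 0.120, limma adjusted p = 3.7e-05). PPP1R15A, the stress-induced phosphatase subunit GADD34 (chromosome 19, 48872421 to 48876058, plus strand), had 87.4, 94.2 and 85.1 RPKM with 2-DG, against 25.4, 35.9 and 26.2 RPKM in NC. This negative feedback gene had a log2 fold change equal to 1.59 (SE 0.124, limma adjusted p = 1.9e-05). The 95% intervals of these inhibitors of the response, 1.10 to 1.64 for TRIB3 and 1.31 to 1.87 for PPP1R15A, lay above that of ATF4, 0.21 to 0.58; the difference between genes was not tested.

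DDIT4, which encodes REDD1, an inhibitor of mTORC1 signalling induced by ATF4, hypoxia and glucocorticoids (chromosome 10, 72273924 to 72276036, plus strand), had 133, 128 and 131 RPKM with 2-DG, against 134, 110 and 121 RPKM in NC. The groups overlapped, and NC replicate 1 was the highest of these 6 libraries. The log2 fold change was 0.10 (SE 0.0700, limma adjusted p = 0.258), with a 95% interval from -0.05 to 0.26 for the deposited values. Without NC replicate 1 the value was 0.18 and passed the threshold (limma adjusted p = 0.0486), and without NC replicate 2 it was 0.04 (limma adjusted p = 0.675). DDIT4 was the most abundant of the 10 genes in all 3 groups. Its reads per base of gene model averaged 0.836 with 2-DG and 0.780 in NC, and the highest mean over libraries of any gene was 1.21. Whether values this near the top of the range are compressed, which could hide a rise, was not tested.

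**Figure D2:**
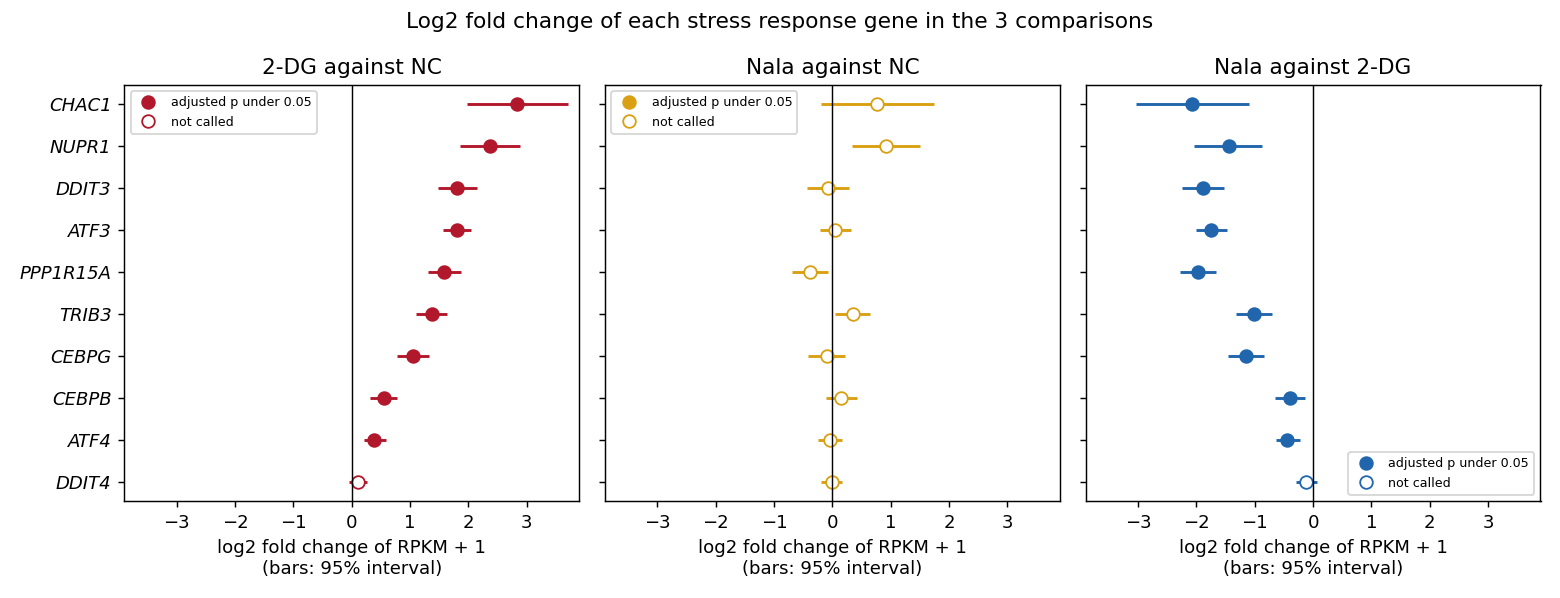
Log2 fold change on the log2(RPKM + 1) scale with its 95% interval for each of the 10 genes in the 3 comparisons; filled points passed an adjusted p of 0.05. For 2-DG against NC the points run from 2.84 for CHAC1 to 0.10 for DDIT4, and for Nala against NC no point is filled.

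The order of levels changed between the groups. With 2-DG, DDIT4 (131 ± 2.65 RPKM) stood above PPP1R15A (88.9 ± 4.72), DDIT3 (88.4 ± 3.61), NUPR1 (82.1 ± 11.7), TRIB3 (75.6 ± 8.24) and ATF4 (65.3 ± 2.49), where neighbours from PPP1R15A to ATF4 overlapped. CEBPB (54.0 ± 3.57), ATF3 (47.9 ± 4.81), CHAC1 (40.2 ± 9.90) and CEBPG (32.02 ± 4.87) followed, each overlapping the next (SD, n = 3). In NC, DDIT4 (122 ± 11.9 RPKM) was followed by ATF4 (49.6 ± 5.07) and CEBPB (36.7 ± 3.98), none of which overlapped its neighbour above. PPP1R15A (29.2 ± 5.81), TRIB3 (28.7 ± 3.40), DDIT3 (25.0 ± 5.82), NUPR1 (15.5 ± 4.71), CEBPG (14.8 ± 1.04) and ATF3 (13.03 ± 1.30) formed a run of overlapping neighbours from CEBPB down, and CHAC1 (5.35 ± 3.19) lay under all of them. With Nala the order was that of NC at the top and bottom, with DDIT4 (121 ± 2.57 RPKM), ATF4 (47.9 ± 0.691) and CEBPB (40.9 ± 5.37) leading and CHAC1 (8.60 ± 0.103) last (SD, n = 2). In between stood TRIB3 (36.9 ± 5.44), NUPR1 (29.9 ± 9.39), DDIT3 (23.3 ± 0.997), PPP1R15A (22.001 ± 1.48), CEBPG (13.8 ± 1.25) and ATF3 (13.5 ± 0.0227). From CEBPB to PPP1R15A neighbours in this order overlapped, as did CEBPG and ATF3, while PPP1R15A lay above CEBPG without overlap. ATF4 mRNA stood above DDIT3, PPP1R15A, NUPR1 and TRIB3 mRNA in NC and under their means with 2-DG.

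Replicate 1 was the lowest of the 2-DG libraries for 7 of the 10 genes and replicate 2 the highest for 8. In NC, replicate 1 was the lowest for 7 genes and replicate 2 the highest for 7. With Nala, replicates 1 and 2 were each the lowest for 5 genes, and replicate 3 was the highest for 6. The genes share these libraries and are not independent observations of the treatment.

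Nala gave another picture. None of the 10 genes passed the test against NC (limma, adjusted p under 0.05; 0 of 10 also with voom on recovered reads), where 0.0619% of all tested genes did, 8 genes in all. That number was 2 to 23 when single libraries were left out and 72 with voom, and none of the 10 genes was among the calls of these fits. At an unadjusted p under 0.05 there were 3 of 10, against 5.61% of all genes, and for these same 3 the groups did not overlap, against 18.2% of all genes. The median log2 fold change was 0.02 over the 10 genes and 0.01 over all genes.

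NUPR1 had 23.2, 34.3 and 38.7 RPKM with Nala, against 10.2, 19.3 and 16.96 RPKM in NC. All Nala libraries were above all NC libraries, and the log2 fold change was 0.92 (SE 0.260, limma adjusted p = 0.441). TRIB3 had 33.1, 42.2 and 39.3 RPKM with Nala, against 25.0, 31.6 and 29.5 RPKM in NC. Here too the groups were apart, by a factor of 1.05 at the nearest libraries, and the log2 fold change was 0.35 (SE 0.135, limma adjusted p = 0.781). PPP1R15A had 23.1, 19.96 and 21.95 RPKM with Nala, against 25.4, 35.9 and 26.2 RPKM in NC. It lay on the other side, with all Nala libraries under all NC libraries, and its log2 fold change was -0.38 (SE 0.138, limma adjusted p = 0.722); without NC replicate 2, the highest NC library, it was -0.22.

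CHAC1 had 8.53, 7.33 and 10.0 RPKM with Nala, against 1.69, 7.54 and 6.82 RPKM in NC. The groups overlapped, and the log2 fold change of 0.77 had a 95% interval from -0.20 to 1.74 (limma adjusted p = 0.992); without NC replicate 1 it was 0.23. The other 6 genes had log2 fold changes from -0.09 for CEBPG to 0.15 for CEBPB, with overlapping groups. For ATF4 the interval was -0.25 to 0.16, for DDIT3 -0.44 to 0.29, for ATF3 -0.21 to 0.32, for CEBPG -0.41 to 0.22, for CEBPB -0.11 to 0.42 and for DDIT4 -0.19 to 0.16. A p that misses the threshold does not show that these levels were equal, and the intervals give the sizes still allowed.

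**Figure D3:**
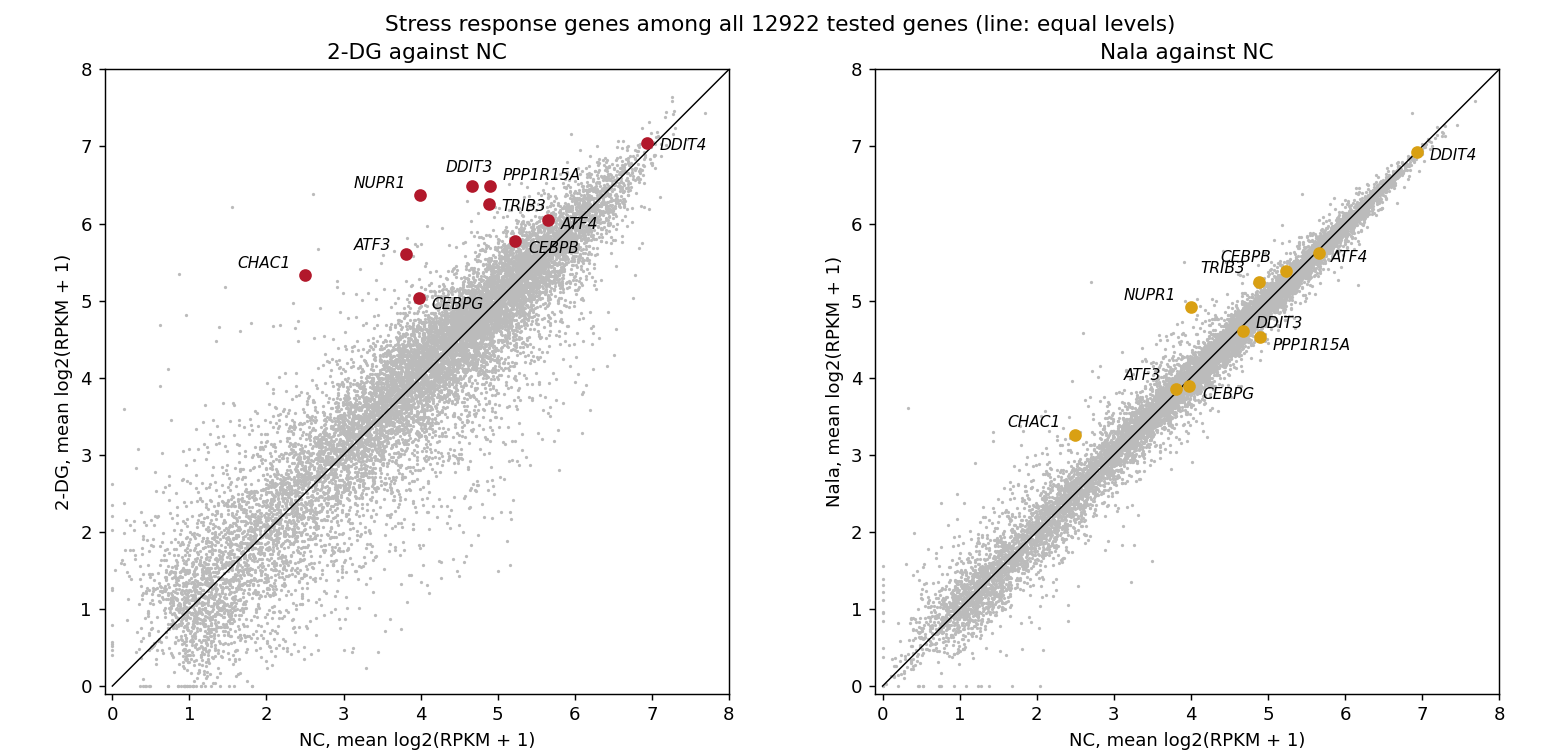
Group mean of log2(RPKM + 1) with 2-DG (left) and with Nala (right) on the vertical axis against NC on the horizontal axis, for all 12922 tested genes in grey and the 10 genes in colour. With 2-DG, 7 genes lie at least 1 log2 unit above the line of equal levels, and with Nala none does.

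Set directly against 2-DG, Nala libraries held less of 9 of the 10 genes (limma, adjusted p under 0.05), where 18% of all tested genes were called lower and 35.9% in either direction. This comparison uses the same 2-DG and Nala libraries as those above and is no separate evidence. All 10 genes had every Nala library under every 2-DG library, against 29.4% of all genes, and the median log2 fold change was -1.30 over the 10 and -0.01 over all genes. The values were -2.07 for CHAC1 (adjusted p = 0.00552), -1.97 for PPP1R15A (adjusted p = 1.9e-05), -1.88 for DDIT3 (adjusted p = 5.3e-05) and -1.75 for ATF3 (adjusted p = 1.6e-05). They were -1.45 for NUPR1, -1.15 for CEBPG and -1.02 for TRIB3, each with an adjusted p of at most 0.00269. ATF4 fell by 0.44 (adjusted p = 0.00538) and CEBPB fell by 0.39 (adjusted p = 0.0271), and DDIT4 had a value of -0.12 (adjusted p = 0.272, 95% interval -0.29 to 0.06). Both of these smaller calls were lost when single libraries were left out. Without Nala replicate 1, which leaves 1 Nala sample assumed to vary like the other groups, ATF4 had -0.42 (adjusted p = 0.0509) and CEBPB -0.26 (adjusted p = 0.234). CEBPB was also no longer called without 2-DG replicate 2 (-0.36, adjusted p = 0.0757) or 2-DG replicate 3 (-0.37, adjusted p = 0.0753). Over all tested genes 4639 were called here, and 2212 without Nala replicate 1.

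Other genes of the pathway were grouped by role in 8 lists, with 163 genes outside the 10. The lists were chosen with earlier results of these data known, so their shares are a description. Of the 151 tested, 80 were higher and 13 lower with 2-DG than in NC (limma, adjusted p under 0.05), against 22.6% and 20.7% of all tested genes, and their median log2 fold change was 0.34. With Nala against NC 0 of 151 were called by limma or by voom, and 11 had an unadjusted p under 0.05, as did 5.61% of all tested genes. With Nala against 2-DG 70 were lower and 8 higher, where 18% of all tested genes were called lower and 17.9% higher.

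Upstream, of 26 tested genes for eIF2alpha kinases, phosphatase partners, eIF2 and eIF2B, 8 were higher with 2-DG and 1 lower, with a median log2 fold change of 0.13, where 22.6% of all tested genes were higher and 20.7% lower. DNAJC3, the inhibitor of PERK and PKR known as p58IPK, averaged 35.4 ± 2.52 RPKM with 2-DG and 15.1 ± 2.06 RPKM in NC (SD, n = 3 each; log2 fold change 1.18, limma adjusted p = 5.8e-05). EIF2AK3, the gene of PERK itself, averaged 17.9 ± 1.98 RPKM with 2-DG and 10.2 ± 1.45 RPKM in NC (0.76, adjusted p = 0.00145). EIF2A, an alternative initiation factor, had a log2 fold change of 0.50 (adjusted p = 0.00193). The other 3 kinases, picked after their values were seen, did not pass: EIF2AK1 for haem lack had -0.01, EIF2AK2 for viral RNA -0.10 and EIF2AK4 for amino acid lack 0.08. PPP1R15B, the constitutive counterpart of PPP1R15A, had 0.20 (adjusted p = 0.0875). Leaving out single libraries gave 7 to 11 higher and 0 to 1 lower genes; the lower one was lost without Nala replicate 1 or any 1 of the NC replicates.

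Of 8 tested paralogues of the 10 genes, 1 was higher and 2 lower with 2-DG, with a median of 0.08, against 22.6% higher and 20.7% lower over all tested genes. CHAC2, the constitutive relative of CHAC1, fell to 9.79 ± 1.38 RPKM with 2-DG, against 23.4 ± 3.70 RPKM in NC (SD, n = 3 each; log2 fold change -1.18, limma adjusted p = 2.1e-04). CEBPD had 0.31 (adjusted p = 0.0408) and CEBPZ, named for its CCAAT-binding domain and not a bZIP factor, -0.28 (adjusted p = 0.0232). Leaving out single libraries gave 0 to 2 higher and 1 to 2 lower: no gene was higher without 2-DG replicate 2 or 3, Nala replicate 3 or NC replicate 3, 2 were without NC replicate 2, and 1 was lower without 2-DG replicate 3 or NC replicate 3.

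Among 27 tested bZIP partners, listed as possible partners or competitors of ATF4, CHOP and ATF3, 13 were higher and 4 lower with 2-DG. Over all tested genes 22.6% were higher and 20.7% lower, and the median of the list was 0.33. FOS, an immediate early gene, fell to 2.25 ± 0.352 RPKM with 2-DG, against 12.98 ± 5.81 RPKM in NC (log2 fold change -2.03, limma adjusted p = 2.2e-04). CREB3L1, a membrane-bound factor of the secretory pathway, fell to 0.681 ± 0.119 RPKM, against 4.79 ± 0.910 RPKM in NC (-1.77, adjusted p = 3.9e-05). CREBRF, which promotes turnover of CREB3, rose to 9.49 ± 0.989 RPKM, against 2.13 ± 0.298 RPKM in NC (1.74, adjusted p = 2.4e-05).

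Of 32 tested ATF4 targets of amino acid supply, 22 were higher and 0 lower with 2-DG, against 22.6% and 20.7% of all tested genes. The median of the list was 0.43, and voom called 24. ASNS, asparagine synthetase, averaged 5.68 ± 0.735 RPKM with 2-DG and 1.13 ± 0.158 RPKM in NC (SD, n = 3 each; log2 fold change 1.65, limma adjusted p = 4.3e-05). ALDH1L2, of mitochondrial folate metabolism, averaged 16.5 ± 1.62 RPKM with 2-DG and 5.35 ± 0.209 RPKM in NC (1.46, adjusted p = 1.9e-05). PCK2, mitochondrial phosphoenolpyruvate carboxykinase, had 0.94 (adjusted p = 2.2e-05).

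Of 12 stress hormones and other secreted or feedback targets, 10 were higher and 0 lower with 2-DG, with a median of 1.21. Over all tested genes 22.6% were higher and 20.7% lower. FGF21, a liver stress hormone, averaged 11.2 ± 2.17 RPKM with 2-DG and 0.119 ± 0.117 RPKM in NC (SD, n = 3 each; limma adjusted p = 3.6e-06). NC lay under the 1 RPKM of the filter, so FGF21, among the 10 counted as higher, was tested because of treated libraries. ADM2, a peptide hormone of the calcitonin family, averaged 30.4 ± 1.02 RPKM with 2-DG and 4.18 ± 1.38 RPKM in NC (log2 fold change 2.63, adjusted p = 7.1e-06). NIBAN1, a regulator of translation under stress, averaged 41.4 ± 1.83 RPKM with 2-DG and 8.25 ± 0.365 RPKM in NC (adjusted p = 1.2e-06).

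Of 14 death-linked genes listed as CHOP-linked, 9 were higher and 2 lower with 2-DG, against 22.6% and 20.7% of all tested genes. The median of the list was 0.41, and a role of CHOP in these changes was not tested. BBC3, which encodes the BH3-only protein PUMA, averaged 34.7 ± 4.62 RPKM with 2-DG and 10.6 ± 1.91 RPKM in NC (SD, n = 3 each; log2 fold change 1.62, limma adjusted p = 6.0e-05). ERO1B, an oxidase of the endoplasmic reticulum, had 1.35 (adjusted p = 9.3e-05), and TNFRSF10B, the death receptor DR5, had 0.73 (adjusted p = 3.9e-05). Of 20 tested targets of XBP1 and ATF6, the other arms of the unfolded protein response, 12 were higher and 1 lower, with a median of 0.35. The shares over all tested genes were again 22.6% and 20.7%. None of the 20 was lower without 2-DG replicate 2 or 3 or NC replicate 1 or 3. DNAJB9, a lumenal chaperone, averaged 33.3 ± 1.99 RPKM with 2-DG and 9.12 ± 1.99 RPKM in NC (1.78, adjusted p = 2.2e-05). ERN1, the gene of the sensor IRE1, had 1.45 (adjusted p = 4.8e-05) and SEL1L, of the degradation machinery of that organelle, 1.04 (adjusted p = 1.1e-04).

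Around DDIT4, 13 genes of mTORC1 signalling were tested, among them the kinase MTOR, its subunit RPTOR and its activators RHEB and AKT1 beside brakes and nutrient sensors. With 2-DG 5 were higher and 3 lower, against 22.6% and 20.7% of all tested genes, and the median of the list was -0.03. TXNIP, a glucose-responsive gene, averaged 60.6 ± 3.76 RPKM with 2-DG and 19.7 ± 9.32 RPKM in NC (SD, n = 3 each; log2 fold change 1.67, limma adjusted p = 9.0e-04). SESN3, a sestrin, averaged 0.645 ± 0.110 RPKM with 2-DG and 3.05 ± 1.22 RPKM in NC (-1.26, adjusted p = 0.00193). CASTOR2, a relative of an arginine sensor, averaged 36.0 ± 3.65 RPKM with 2-DG and 75.5 ± 13.1 RPKM in NC (-1.04, adjusted p = 2.2e-04). Without 2-DG replicate 3 the number of higher genes in this list was 3.

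**Figure D4:**
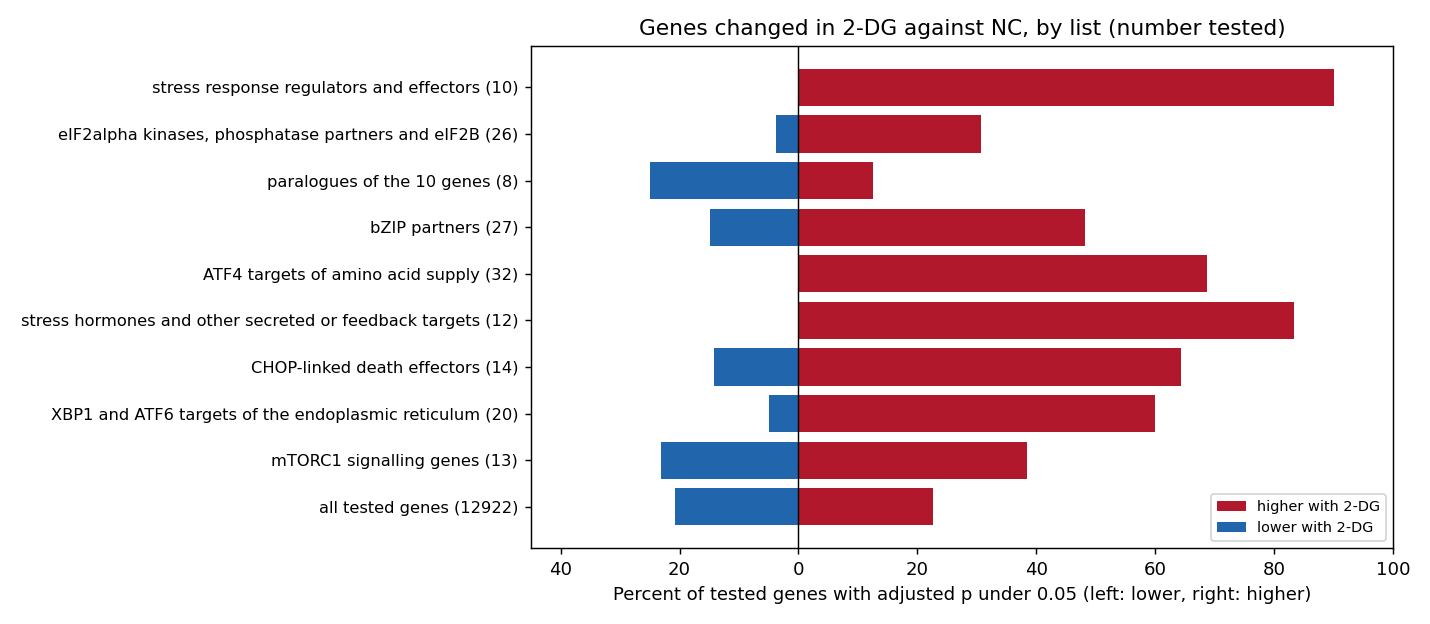
Percent of tested genes in each list that were called higher (to the right) or lower (to the left) with 2-DG than in NC, with the 10 genes at the top and all 12922 tested genes at the bottom. Stress hormones and feedback targets (10 of 12 higher) and amino acid supply targets (22 of 32 higher) stand next to the 10 genes (9 of 10 higher), against 22.6% of all genes. Genes and lists were chosen with earlier results of these data known.

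For Nala against 2-DG, most calls in the larger lists were on the lower side. Called lower with Nala were 20 of 32 amino acid supply targets, 10 of 12 hormones and feedback targets, 12 of 20 XBP1 and ATF6 targets, 13 of 27 bZIP partners, 8 of 26 upstream genes, 5 of 14 death-linked genes, 2 of 13 mTORC1 genes and 1 of 8 paralogues, where 18% of all tested genes were. Called higher were 2 each of the bZIP partners, death-linked genes, mTORC1 genes and paralogues, and none in the other lists, where 17.9% of all tested genes were. The largest differences among called genes were in part those named above, with CHAC2 at 24.0 ± 1.202 RPKM with Nala (SD, n = 2) and 9.79 ± 1.38 RPKM with 2-DG (SD, n = 3). TXNIP averaged 11.2 ± 1.99 RPKM with Nala and 60.6 ± 3.76 RPKM with 2-DG (log2 fold change -2.34, limma adjusted p = 3.7e-04). EIF2D, an initiation factor of the upstream list, had -0.48 (adjusted p = 0.00187), and BID, a BH3-only death gene, had 0.76 (adjusted p = 0.00576).

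The standardised log2(RPKM + 1) values of the 10 genes were averaged into a profile over the 8 samples. The correlation of each gene with that profile, of which it is a part, was 0.924 to 0.991 for 9 genes and 0.535 for DDIT4. Of 12912 other tested genes, the 5 most alike by Pearson correlation over the same 8 samples were YIF1A (0.997), COL20A1 (0.996), ATG13 (0.996), RNF185 (0.996) and RBCK1 (0.995). These samples share libraries and group structure, so any gene that is higher in the 2-DG group and alike in the others correlates highly. YIF1A averaged 106 RPKM with 2-DG, 71.9 with Nala and 71.9 in NC, and RNF185 averaged 19.97, 6.93 and 6.63 RPKM in the same groups. ATG13 averaged 52.0, 28.4 and 27.8 RPKM, RBCK1 58.0, 35.7 and 33.3 RPKM, and COL20A1 4.19, 0.200 and 0.112 RPKM.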

How the data were processed

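RNA-seq was analysed in 9 libraries, grouped and numbered by their titles. The deposited values are RPKM, which the authors scaled to gene model length and library total. The submitters' processing notes name hg38 as the build and, without a role for each assay, RSEM 1.2.8, HISAT2 2.1.0, Bowtie2 2.2.5 and DESeq among the tools. The role of each tool in the RPKM values, and the use of strand, were not given in the sources used here. In 100% of genes the values were whole multiples of what 1 read is worth, within 0.0001 reads, which gave the depth.

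A gene was tested if 3 or more of the 9 libraries reached 1 RPKM, which held for 12922 genes. Some genes, such as FGF21, CREB3L1, SESN3 and COL20A1, passed through the groups where they were high. On the log2(RPKM + 1) scale, which understates changes of low genes, limma 3.58.1 in R 4.3.3 fitted the 3 groups jointly with an intensity trend, using 8 samples (Nala replicates 2 and 3 averaged) and 5 residual degrees of freedom. Adjustment was by Benjamini-Hochberg over all tested genes of a comparison, and an adjusted p under 0.05 was a call. The series design states biological replicates. Same-numbered samples did not deviate together, so no replicate block was used.

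The 10 genes, the 8 lists and the tests were chosen with earlier results of these data known. By rule, the text names all 10 genes, up to 3 called genes per list and comparison with the largest change, and the 5 most alike genes. Others, among them MARS1, PPP1R15B and the kinases without a call, were chosen after their values were seen. Positions and promoters are from RefSeq GRCh38.p14. Scripts were tested on simulated data. Alternatives were a pseudocount of 0.1, other filters, scalings and fits, the replicate block, voom on recovered reads and leaving out each library.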

Additional observations from a re-analysis of the deposited data

How the results depend on the processing

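The 9 genes called with 2-DG against NC stayed called under every alternative run, and no value of the 10 genes changed sign past the threshold. Of 600 values of single genes 594 kept their side of the threshold; the exceptions were ATF4 and CEBPB with Nala against 2-DG and DDIT4 with 2-DG against NC, given above, and NUPR1 with Nala against NC. Leaving out each library gave 9 to 10 of the 10 genes called with 2-DG against NC, 0 to 0 with Nala against NC and 7 to 9 with Nala against 2-DG. Over all genes it gave 4270 to 6091, 2 to 23 and 2212 to 5261 calls in these comparisons, the lowest count of the last without Nala replicate 1. The number of genes called over the whole table with Nala against NC, 8 in the fit reported, was small and moved with most settings. It was 25 with no filter, 15 with a filter of 5 RPKM, 13 with median-of-ratios scaling, 17 with quantile normalization, 16 with a common library sum, 64 with Nala replicates 2 and 3 kept apart and 72 with voom on recovered reads.

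The replicate number as a block, with the Nala libraries kept apart, gave 31 calls over all genes with Nala against NC and 1 of the 10 genes, NUPR1 (log2 fold change 1.02, limma adjusted p = 0.0109). It gave 5867 calls with 2-DG against NC and 5708 with Nala against 2-DG. The numbers do not pair the samples: the correlations of same-numbered deviations were -0.06 to 0.05 for 2-DG and NC, -0.12 to -0.01 for Nala and NC and 0.01 to 0.08 for Nala and 2-DG. With 2 samples of Nala, small differences from NC could not be resolved. Counts of the lists without single libraries were added after seeing the data.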
